A study of Homo sapiens with 6 samples.

Results

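The 10 genes described here, PON2, ITPA, RWDD2B, AGTRAP, EDF1, SAP30BP, ELOVL1, TMEM208, IFRD2 and RBM39, were picked from the 11034 Ensembl genes of the series because the choice between 2 splice forms differed strongly between U2AF1 S34F and wild-type cells. The shares at these choices therefore come from the contrast that chose the genes, and they are given as a description with no test. Long cDNA reads were counted per isoform in 6 nanopore libraries of HBEC3kt, an immortalised line of bronchial epithelial cells. The 3 S34F libraries carry the U2AF1 S34F mutation, a serine replaced by phenylalanine, and the 3 WT libraries are wild type for U2AF1; read counts do not show the mutation itself. Each genotype has cell isolate 1 (replicate 1, mark B1), cell isolate 2 (replicate 2, mark B1) and isolate 2 once more (replicate 3, mark B2), so replicates 2 and 3 are not separate isolates. The labels used here do not say what B1 and B2 stand for, how the mutation was introduced or how the isolates were obtained.

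U2AF1 is the small subunit of U2AF, the factor that marks the end of an intron by contacting the AG dinucleotide at the 3′ splice site, while its partner U2AF2 contacts the pyrimidine tract before it. The mutated serine lies in a zinc finger of U2AF1, and cells with S34F are known to use 3′ splice sites with a T just before the AG less often. A cassette exon is an exon that a transcript holds or skips whole, and an alternative 3′ or 5′ splice site lengthens or shortens one end of an exon. A change of coding length that is no multiple of 3 bases alters the reading frame downstream of it, and a stop codon gained well before the last exon can send a transcript into nonsense-mediated decay.

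The libraries held 451540 to 1014868 assigned reads in S34F and 1286512 to 1720292 in WT, and the 10 genes took 0.186% of all reads. The S34F libraries were thus the shallower ones. Of 14 epithelial markers 13 reached 10 CPM on average, and their summed level was 17640 to 25931 CPM in S34F and 14040 to 21382 CPM in WT libraries. The list holds basal genes such as KRT5 and TP63 beside KRT8, KRT18, KRT19, EPCAM and CDH1, which are not particular to basal cells. On average KRT19 had 4810 CPM, KRT5 673 CPM and TP63 18.8 CPM, so the sum does not show a basal identity. Of 6 blood markers CD68 alone was measured, with 65.03 to 88.6 CPM in S34F and 50.5 to 76.7 CPM in WT, while no isoform was listed for PTPRC, CD3E, LYZ or HBB. The same held for all of the 6 mesenchymal, 3 endothelial and 6 secretory and ciliated markers, which does not show that no read of them was made.

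The isoforms of the 10 genes, 197 in all, gave 156 splice choices, of which 103 had at least 10 informative reads in every library. An informative read belongs to an isoform that shows one or the other form, and the share is the percentage of informative reads with the longer or included form. The choice that stood out most in each gene was a cassette exon in 7 genes, an alternative 3′ splice site in 2 and an alternative 5′ splice site in 1. The share of the longer or included form was lower in S34F in 9 genes and higher in 1, ITPA. The absolute difference between genotype means ranged from 4.71 to 33.7 percentage points with a median of 14.1 points. In 10 of 10 genes the S34F and WT shares did not overlap, beside 14.6% of all 17088 choices measured in the series, and in 9 every S34F share lay below every WT share, beside 8.18% of all choices. Nothing is read from these counts, since the genes were chosen on this contrast.

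**Figure D1:**
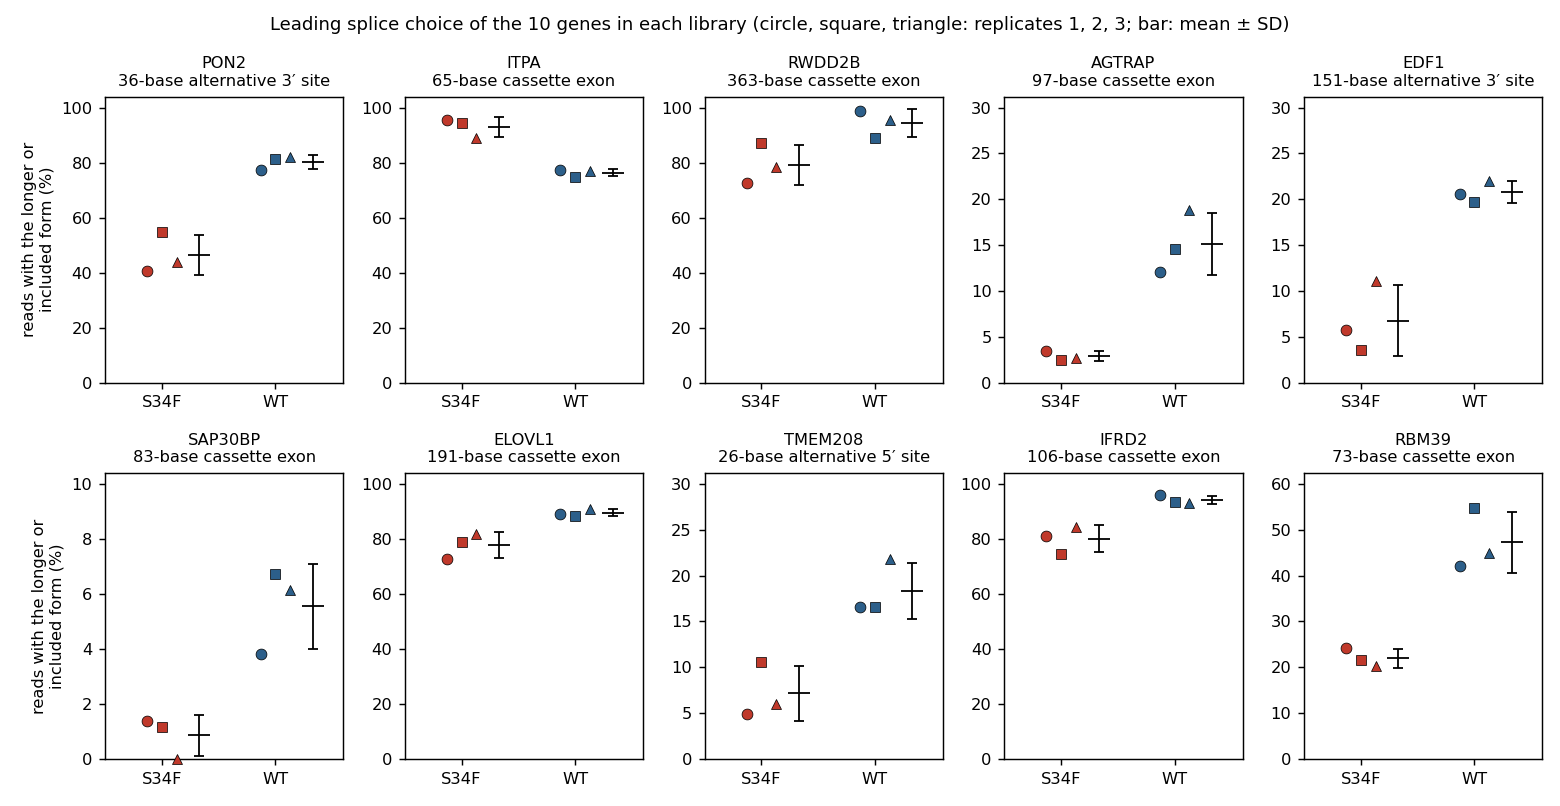
Share of informative reads with the longer or included form (%, vertical axis from 0, scale differing between panels) at the leading splice choice of each gene, with S34F left of WT, 1 point per library and the mean ± SD of 3 libraries beside it. In ITPA the S34F points lie above the WT points and in the other 9 genes below them; in RWDD2B the nearest points of the groups are 87.0% and 88.9%.

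RBM39 and SAP30BP act in pre-mRNA splicing. RBM39 is a relative of U2AF2 that helps to choose splice sites and is degraded when aryl sulfonamide drugs bind it to the ubiquitin ligase receptor DCAF15. Its leading choice was a 73-base cassette exon on the minus strand of chromosome 20, carried in the annotation by transcripts of the nonsense-mediated decay type (ENST00000453310, ENST00000403542 and ENST00000444878), whose reading frame runs for 69 bases of the exon and then meets a stop codon. The exon, read from GENCODE v29 like the other sequences here, is shown 5′ to 3′ on the transcript strand with that stop codon in capitals, and its hg19 position is chr20:34328447-34328519.
RBM39 73-base exon: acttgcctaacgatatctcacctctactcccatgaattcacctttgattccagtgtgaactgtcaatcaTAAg

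Reads with the RBM39 exon were 15 of 62, 20 of 93 and 18 of 89 in S34F replicates 1 to 3, against 64 of 152, 81 of 148 and 61 of 136 in WT replicates 1 to 3. The exon was thus in about the same share of reads in all S34F libraries, and every WT library was higher. The share averaged 22.0% ± 2.03 in S34F and 47.2% ± 6.64 in WT (SD, n = 3 each), a difference of -25.3 points (S34F minus WT). Over the reads of annotated isoforms alone the difference was -8.25 points. In S34F replicate 1, the library with fewest informative reads, the 95% Wilson interval ran from 15.2% to 36.2%. Wilson intervals and limits here cover the counting error of reads only, not the spread between libraries. The cDNA was amplified without molecular identifiers, so reads need not be separate molecules and the intervals may be too narrow. The annotated coding sequence of the decay transcripts holds 40 codons, beside 530 codons in the full-length ENST00000253363, which lacks the exon.

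Whole isoforms of RBM39 followed this choice only in part. A 17-exon form without the exon that carries no annotated ID held 9.84% ± 5.58 of the gene's reads in S34F and 2.53% ± 1.08 in WT (SD, n = 3 each), and the ranges did not overlap. The most abundant 17-exon form without it held 23.1% ± 13.0 in S34F and 11.7% ± 8.46 in WT, with overlapping ranges. The forms with the exon that reached 5% were short, with 5 exons, and their ranges overlapped too. One of 641 bases held 4.39% ± 2.36 in S34F and 7.67% ± 5.32 in WT. ENST00000453310, of 739 bases, held 4.50% ± 1.13 in S34F and 7.31% ± 5.12 in WT. Many RBM39 reads do not reach the exon, in the B2 libraries above all: 89 of 180 reads were informative in S34F replicate 3 and 136 of 546 in WT replicate 3. Among reads that also cover a 4-base alternative 3′ splice site in the middle of the gene, the exon was in 14 of 178 reads in S34F and 58 of 241 in WT, and all of those reads used the longer form of that site. Among these longer molecules the exon's share was thus 7.87% in S34F and 24.1% in WT. Both are lower than the shares over all informative reads, which include short forms.

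SAP30BP binds the SAP30 subunit of the SIN3A histone deacetylase complex and assists the splicing of short introns together with RBM17. The leading choice of SAP30BP was an 83-base cassette exon at chr17:73701691-73701773 (hg19, plus strand) that is rare in both genotypes. Reads with it were 2 of 145, 1 of 85 and 0 of 223 in S34F replicates 1 to 3, against 11 of 289, 14 of 208 and 17 of 277 in WT replicates 1 to 3. All S34F libraries were under all WT libraries, and the 0 of 223 reads in S34F replicate 3 allows a share of up to 1.35%. The share averaged 0.852% ± 0.745 in S34F and 5.56% ± 1.55 in WT (SD, n = 3 each), a difference of -4.71 points, and the Wilson interval of S34F replicate 2 ran from 0.208% to 6.37%.

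The same 3′ splice site also opens exons with other ends. An 81-base exon from it was in 1.53% ± 0.730 of reads in S34F and 5.77% ± 2.14 in WT. Any exon from it was in 5 of 148, 3 of 87 and 2 of 225 reads in S34F replicates 1 to 3, against 22 of 300, 34 of 228 and 34 of 294 in WT replicates 1 to 3, with means of 2.57% ± 1.46 in S34F and 11.3% ± 3.80 in WT (SD, n = 3 each). Farther upstream, a 102-base exon at chr17:73686751-73686852 and a 142-base exon at chr17:73687474-73687615 were taken up as a pair. The pair was in 3 of 145, 1 of 87 and 6 of 221 reads in S34F replicates 1 to 3, against 38 of 286, 36 of 222 and 43 of 288 in WT replicates 1 to 3. Its share averaged 1.98% ± 0.787 in S34F and 14.8% ± 1.47 in WT, a difference of -12.8 points that is larger than that of the leading exon, and the ranges did not overlap. The main form, a version of ENST00000584667 (308 codons), lacks all of these exons and held 64.5% ± 4.41 of the gene's reads in S34F and 49.1% ± 1.96 in WT (SD, n = 3 each).

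**Figure D2:**
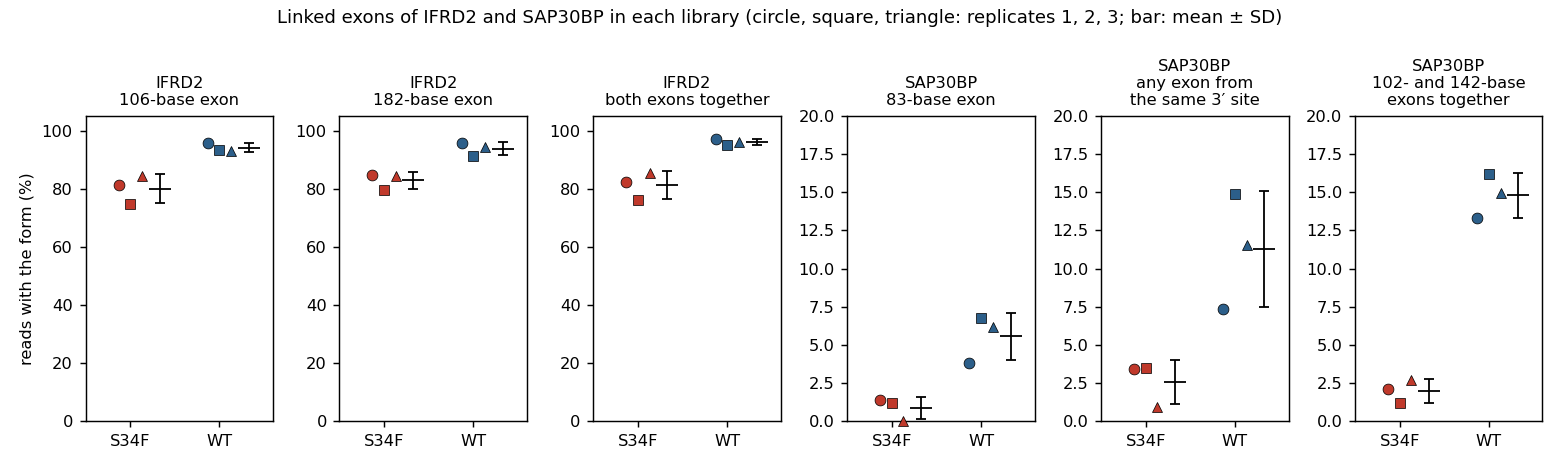
Share of informative reads (%, vertical axes from 0) with single exons and exon pairs of IFRD2 and SAP30BP, with S34F left of WT, 1 point per library and the mean ± SD of 3 libraries beside it. The IFRD2 pair averaged 81.2% in S34F and 96.0% in WT, the SAP30BP pair 1.98% in S34F and 14.8% in WT, and no panel shows overlapping groups.

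EDF1 and IFRD2 act at the ribosome. EDF1 is a transcriptional coactivator that is also recruited to collided ribosomes, and IFRD2 occupies idle ribosomes, as seen in rabbit reticulocytes. The leading choice of EDF1 was an alternative 3′ splice site of the last exon, whose longer form adds 151 bases at chr9:139756798-139756948 (hg19, minus strand). In ENST00000371649 the added segment gives 38 coding bases and then a stop codon, so that the coding sequence has 141 codons beside 148 in ENST00000224073, which uses the shorter exon. The coding start of the segment is shown, chr9:139756908-139756948, with the stop codon in capitals.
EDF1 start of the added segment: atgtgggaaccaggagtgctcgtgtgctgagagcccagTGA

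EDF1 reads with the longer last exon were 13 of 226, 3 of 85 and 15 of 136 in S34F replicates 1 to 3, against 98 of 477, 93 of 471 and 54 of 245 in WT replicates 1 to 3. WT libraries lay close together, and the highest S34F library reached 11.0%. The share averaged 6.77% ± 3.85 in S34F and 20.8% ± 1.17 in WT (SD, n = 3 each), a difference of -14.01 points, with a Wilson interval of 1.21% to 9.87% in S34F replicate 2. As whole isoforms, ENST00000224073 held 80.6% ± 3.71 of the gene's reads in S34F and 62.5% ± 2.88 in WT, and ENST00000371649 held 5.07% ± 2.80 in S34F and 14.5% ± 1.48 in WT. A 4-base alternative 5′ splice site farther upstream was also used less in S34F, in 3.53% ± 0.639 of reads against 7.68% ± 1.57 in WT, with ranges apart.

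The leading choice of IFRD2 was a 106-base coding exon of the 506-codon ENST00000417626 at chr3:50326686-50326791 (hg19, minus strand). Reads with it were 86 of 106, 53 of 71 and 97 of 115 in S34F replicates 1 to 3, against 352 of 367, 142 of 152 and 148 of 159 in WT replicates 1 to 3. The exon was in most reads of every library, with all S34F libraries under all WT libraries. The share averaged 80.0% ± 4.94 in S34F and 94.1% ± 1.55 in WT (SD, n = 3 each), a difference of -14.1 points, with a Wilson interval of 63.4% to 83.3% in S34F replicate 2.

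The 106-base exon was nearly always kept or lost together with its 182-base neighbour at chr3:50326878-50327059. Of reads informative at both exons, 222 held both, 3 the first alone, 5 the second alone and 49 neither in S34F, against 613, 10, 8 and 23 in WT. Each exon alone would shift the reading frame, while the joint loss of 288 bases keeps it. Among reads that show either the exact pair or an intron across it, the pair was in 83 of 101, 51 of 67 and 88 of 103 in S34F replicates 1 to 3, against 341 of 351, 131 of 138 and 141 of 147 in WT replicates 1 to 3, with means of 81.2% ± 4.73 in S34F and 96.0% ± 1.11 in WT (SD, n = 3 each). An unannotated 10-exon form without both held 11.5% ± 1.01 of the gene's reads in S34F and 1.64% ± 1.01 in WT. ENST00000417626 held 48.8% ± 3.81 in S34F and 54.3% ± 3.43 in WT, with overlapping ranges. Unannotated 11-exon forms with the 106-base exon went both ways, with ranges apart. The one of 2039 bases held 8.52% ± 2.24 in S34F and 3.53% ± 0.639 in WT. The one of 1817 bases held 1.73% ± 1.27 in S34F and 6.52% ± 2.05 in WT.

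A 102-base version of the first IFRD2 exon, which starts 4 bases later, is set against the same skipping reads and gave a larger difference on fewer reads. Its share was 18 of 38, 11 of 29 and 8 of 26 reads in S34F replicates 1 to 3, against 73 of 88, 30 of 40 and 32 of 43 in WT replicates 1 to 3, with means of 38.7% ± 8.33 in S34F and 77.5% ± 4.77 in WT, a difference of -38.8 points. IFRD2 had the most other choices with groups apart, 8 of 19. Among them an 85-base cassette exon at chr3:50327819-50327903 was in 95.1% ± 0.829 of reads in S34F and 89.4% ± 3.32 in WT, and a 137-base intron at chr3:50325703-50325839 was retained in 12.4% ± 2.77 of reads in S34F and 7.02% ± 0.380 in WT.

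TMEM208, ELOVL1 and AGTRAP encode membrane proteins. TMEM208 takes part in a route that brings proteins to the endoplasmic reticulum independently of the signal recognition particle. Its leading choice was an alternative 5′ splice site that adds 26 bases to an exon on the plus strand of chromosome 16. The longer form is carried by ENST00000562235, a transcript of the nonsense-mediated decay type.

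TMEM208 reads with the added segment were 11 of 224, 8 of 76 and 10 of 167 in S34F replicates 1 to 3, against 65 of 391, 54 of 326 and 59 of 270 in WT replicates 1 to 3. The groups did not overlap, and the highest S34F library had 10.5%. The share averaged 7.14% ± 2.98 in S34F and 18.3% ± 3.04 in WT (SD, n = 3 each), a difference of -11.2 points, with a Wilson interval of 5.43% to 19.4% in S34F replicate 2, which takes in the shares of WT replicates 1 and 2. The decay transcript, with 100 codons beside 173 in ENST00000304800, held 4.80% ± 0.702 of the gene's reads in S34F and 13.1% ± 2.32 in WT. Of the 2 main forms named after ENST00000304800, the one with the earlier start held 44.0% ± 3.13 in S34F and 33.4% ± 3.70 in WT, and the other held 36.3% ± 4.26 in S34F and 34.8% ± 1.51 in WT with overlapping ranges. The longer form of a 117-base alternative 3′ splice site upstream was in 5.28% ± 2.09 of reads in S34F and 10.2% ± 0.586 in WT, again with ranges apart.

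ELOVL1 lengthens saturated very long chain fatty acids in the endoplasmic reticulum. In ELOVL1 the leading choice was a 191-base coding exon of the 279-codon ENST00000372458 at chr1:43830857-43831047 (hg19, minus strand). Reads with it were 77 of 106, 63 of 80 and 204 of 249 in S34F replicates 1 to 3, against 389 of 437, 200 of 226 and 433 of 476 in WT replicates 1 to 3. WT libraries differed little among themselves and all lay above the S34F libraries. The share averaged 77.8% ± 4.72 in S34F and 89.5% ± 1.30 in WT (SD, n = 3 each), a difference of -11.7 points, with a Wilson interval of 68.6% to 86.3% in S34F replicate 2. A 378-base alternative 5′ splice site that spans the exon differed by -12.3 points on far fewer reads, with ranges apart. Its longer form was in 0 of 27, 0 of 15 and 4 of 45 reads in S34F replicates 1 to 3. In WT replicates 1 to 3 that form was in 8 of 46, 3 of 24 and 7 of 44 reads. A form without the exon, ENST00000487209, is annotated as a processed transcript with no coding sequence, and it held 14.4% ± 3.09 of the gene's reads in S34F and 4.64% ± 0.802 in WT. Other isoforms held the rest of the reads without the exon. The main form of the coding ENST00000372458 held 45.9% ± 5.55 in S34F and 52.8% ± 4.99 in WT, with overlapping ranges.

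AGTRAP binds the type 1 angiotensin II receptor and promotes its uptake from the cell surface. The choice that stood out in AGTRAP was a 97-base exon at chr1:11806184-11806280 (hg19, plus strand), wholly coding in ENST00000400895. The exon is given in full because it is the minor form in both genotypes.
AGTRAP 97-base exon: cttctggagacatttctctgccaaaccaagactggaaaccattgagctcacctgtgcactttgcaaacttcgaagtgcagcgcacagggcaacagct

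AGTRAP reads with the exon were 7 of 201, 3 of 124 and 4 of 147 in S34F replicates 1 to 3, against 50 of 414, 35 of 241 and 43 of 229 in WT replicates 1 to 3. No S34F library exceeded 3.48% and no WT library was under 12.1%. The share averaged 2.87% ± 0.548 in S34F and 15.1% ± 3.39 in WT (SD, n = 3 each), a difference of -12.3 points, with a Wilson interval of 0.826% to 6.87% in S34F replicate 2. ENST00000400895, with 147 codons, held 2.19% ± 0.681 of the gene's reads in S34F and 10.3% ± 2.24 in WT, and ENST00000314340, with 159 codons and without the exon, held 69.7% ± 4.22 in S34F and 58.3% ± 4.08 in WT. A 175-base exon nearer the 3′ end was in 89.1% ± 4.30 of informative reads in S34F and 96.9% ± 1.37 in WT. These were few, 26 to 44 reads per S34F library and 57 to 93 per WT library. A 196-base version of the exon was set against equally many skipping reads but held far more reads itself. That version was in 96.9% ± 1.10 of reads in S34F and 99.1% ± 0.317 in WT, a difference of -2.15 points.

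ITPA and PON2 are enzymes. ITPA hydrolyses inosine triphosphate and so keeps deaminated purines out of the nucleotide pool. Its 65-base exon at chr20:3193965-3194029 (hg19, plus strand) lies wholly in the coding sequence of the 194-codon ENST00000380113. It is shown in full as the only leading exon with a higher share in S34F.
ITPA 65-base exon: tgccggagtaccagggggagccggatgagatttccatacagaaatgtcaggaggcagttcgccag

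ITPA reads with the exon were 103 of 108, 104 of 110 and 199 of 224 in S34F replicates 1 to 3, against 261 of 338, 160 of 214 and 172 of 223 in WT replicates 1 to 3. Every S34F library was above every WT library, and WT libraries were within a few points of each other. The share averaged 92.9% ± 3.56 in S34F and 76.4% ± 1.39 in WT (SD, n = 3 each), a difference of 16.5 points, with a Wilson interval of 89.6% to 98.0% in S34F replicate 1. A 58-base exon just upstream was in 96.3% ± 2.48 of reads in S34F and 90.4% ± 1.45 in WT, so both exons were more often present in S34F. A 43-base lengthening of the 65-base exon was in 0.358% ± 0.621 of reads in S34F and 3.84% ± 1.03 in WT.

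Whole ITPA transcripts followed the exon. Both forms named after ENST00000380113 that passed 5% held more of the gene's reads in S34F: 37.7% ± 6.10 in S34F and 25.9% ± 3.40 in WT for the longer one, and 23.5% ± 5.72 in S34F and 13.5% ± 2.06 in WT for the other. A form of ENST00000460550, a processed transcript without the exon, held 1.03% ± 0.224 in S34F and 6.26% ± 0.362 in WT (SD, n = 3 each). Reads that held the 58-base exon without the 65-base exon made up 25 of 440 in S34F and 156 of 766 in WT.

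PON2 is a lactonase of the paraoxonase family that sits in membranes and limits oxidative damage. Its leading choice was an alternative 3′ splice site at chr7:95041056-95041091 (hg19, minus strand), whose longer form adds 36 coding bases and keeps the reading frame. The segment is shown with the CAG that ends the intron of the shorter form in capitals.
PON2 added segment: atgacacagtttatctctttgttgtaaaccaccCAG

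PON2 reads with the 36 bases were 11 of 27, 29 of 53 and 35 of 80 in S34F replicates 1 to 3, against 51 of 66, 39 of 48 and 113 of 138 in WT replicates 1 to 3. The S34F libraries used both forms about equally, while the longer form dominated in every WT library. The share averaged 46.4% ± 7.36 in S34F and 80.1% ± 2.50 in WT (SD, n = 3 each), a difference of -33.7 points and the largest among the leading choices of the 10 genes. In S34F replicate 1 the Wilson interval ran from 24.5% to 59.3%. ENST00000222572, with 354 codons, held 29.4% ± 12.1 of the gene's reads in S34F and 54.0% ± 6.998 in WT, and ENST00000433091, which lacks the 36 bases and has 342 codons, held 39.3% ± 1.65 in S34F and 10.01% ± 3.70 in WT. None of the 4 other measured choices of PON2 had groups apart, and the largest difference among them was 3.89 points.

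RWDD2B encodes a protein with an RWD domain, a fold shared with ubiquitin-conjugating enzymes. Its leading choice was a 363-base exon at chr21:30380082-30380444 (hg19, minus strand), wholly coding in the 319-codon ENST00000493196 and a multiple of 3 in length. Reads with it were 21 of 29, 20 of 23 and 209 of 267 in S34F replicates 1 to 3, against 79 of 80, 48 of 54 and 667 of 698 in WT replicates 1 to 3. The groups were apart by a narrow margin, with 87.0% in S34F replicate 2 and 88.9% in WT replicate 2, both libraries of few reads. The share averaged 79.2% ± 7.32 in S34F and 94.4% ± 5.03 in WT (SD, n = 3 each), a difference of -15.2 points, and the Wilson interval of S34F replicate 2, 67.9% to 95.5%, takes in the share of WT replicate 2.

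An unannotated 3-exon form of RWDD2B without the exon held 20.3% ± 7.27 of the gene's reads in S34F and 3.96% ± 2.99 in WT, and the 4-exon ENST00000286777 with it held 17.7% ± 0.698 in S34F and 26.8% ± 2.36 in WT. The protein-coding ENST00000493196 held 31.6% ± 6.50 in S34F and 35.1% ± 10.3 in WT, with overlapping ranges. None of the 5 other measured choices had groups apart.

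**Figure D3:**
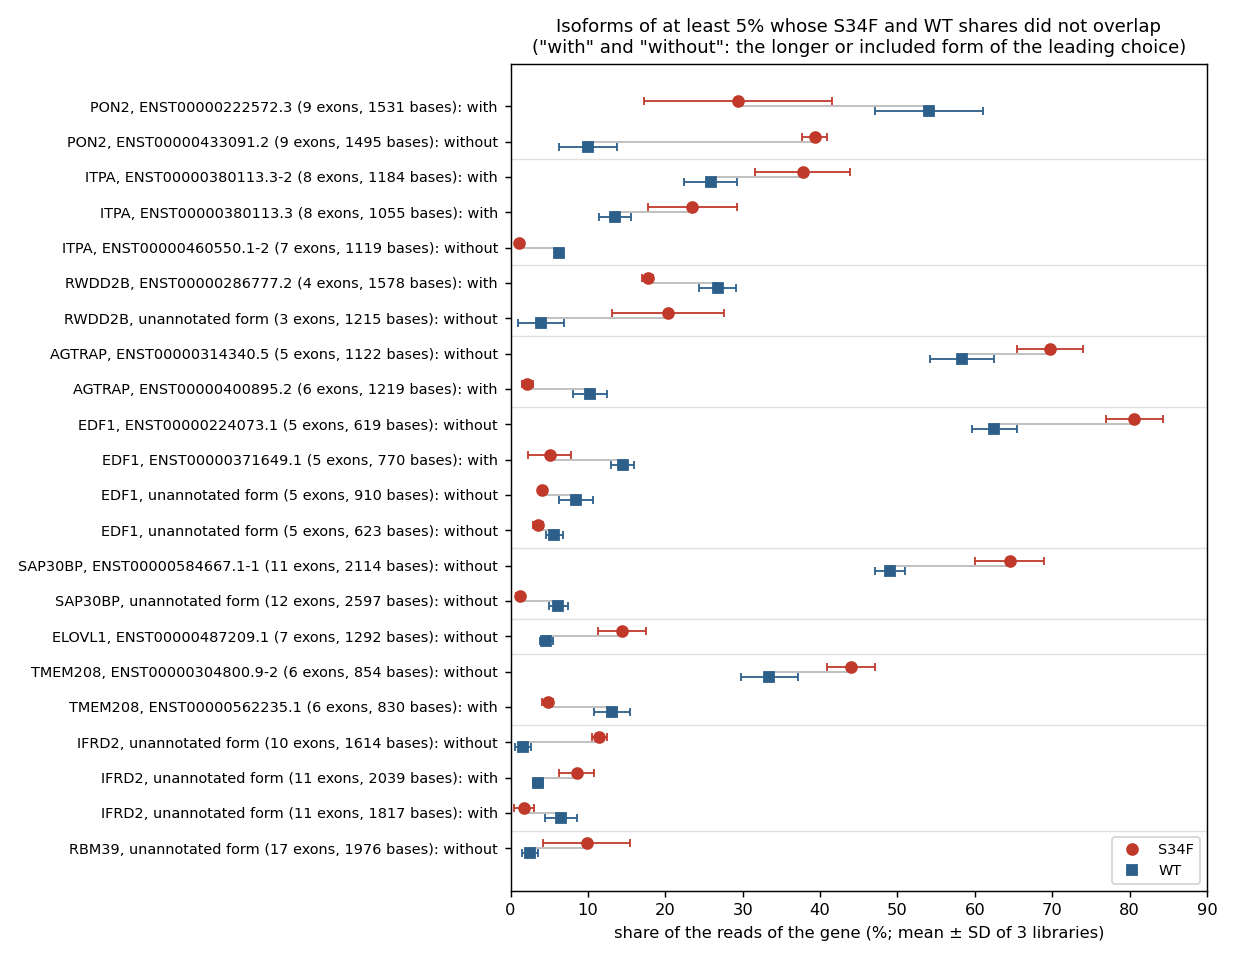
Share of the reads of its gene (%, horizontal axis; mean ± SD of 3 libraries) for each isoform with a mean share of at least 5% whose S34F (circles, upper) and WT (squares, lower) shares did not overlap, labelled by whether it holds the longer or included form of the leading choice. The largest gaps are those of the PON2 isoforms, 29.4% in S34F and 54.0% in WT with the segment and 39.3% in S34F and 10.01% in WT without it.

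Across the 10 genes, 43 isoforms reached a mean share of 5% in a genotype, and the S34F and WT shares of 22 did not overlap, 12 of them higher and 10 lower in S34F, beside 14.8% of 13342 such isoforms in genes with several isoforms and at least 10 reads in every library. Nothing is read from this count either, since an isoform's share holds the choice that picked its gene. Of the 10 leading segments 2, those of PON2 and RWDD2B, had a length that is a multiple of 3, beside 39.9% of all measured choices. A count in 10 genes says little about such a share. The IFRD2 exon is counted alone here, though it was mostly lost with its neighbour, and their 288 bases are a multiple of 3. Of the 93 other choices measured in these genes, 22 had groups apart, beside 14.6% of all choices; choices of a gene are read from the same molecules, and some of the 22 are set against the same skipping reads as the leading one. The leading difference was -31.5 points in B1 and -38.1 points in B2 for PON2, 19.0 points in B1 and 11.7 points in B2 for ITPA, and -16.8 points in B1 and -8.73 points in B2 for IFRD2. B2 holds 1 library of each genotype, so its values have no replicate. The sign within B1 and B2 is no further evidence, since groups that do not overlap fix it.

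**Figure D4:**
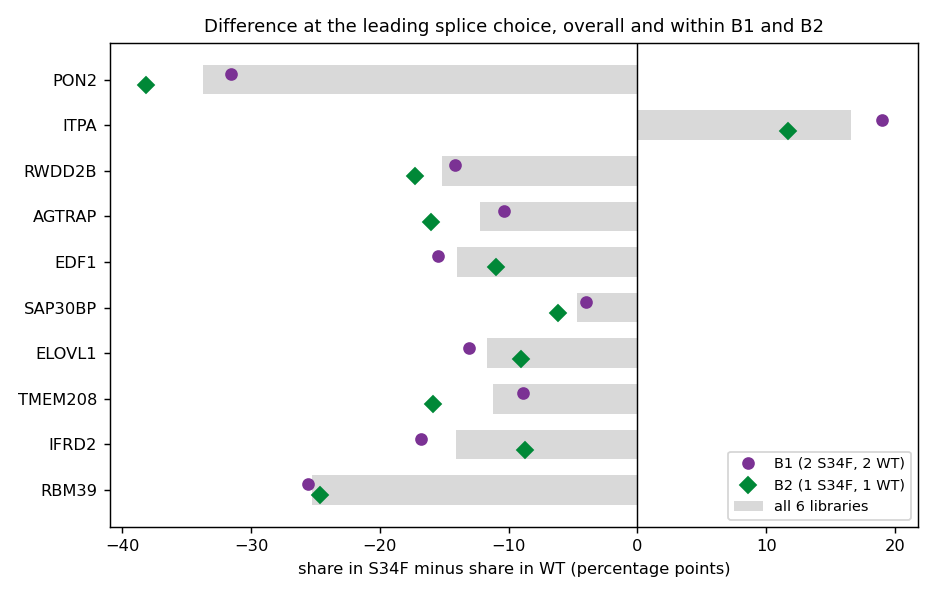
Difference in share at the leading choice (S34F minus WT, percentage points, horizontal axis) for each gene over all 6 libraries (bars), within B1 (circles, 2 libraries per genotype) and within B2 (diamonds, 1 library per genotype). For PON2 the circle is at -31.5 and the diamond at -38.1, and for ITPA the circle is at 19.0 and the diamond at 11.7.

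The sequence before the changed segment could be read for 5 genes, from annotated transcripts that run through the end of the intron. The intron ended in TAG before the RBM39 and RWDD2B exons and before the longer last exon of EDF1, in GAG before the AGTRAP exon and in AAG before the ITPA exon. The competing downstream sites of EDF1 and PON2 both follow CAG. For 2284 measured cassette exons of the series whose intron end could be read and was AG, the base before it was C in 67.6%, T in 26.4%, A in 4.99% and G in 0.919%. S34F shares lay below all WT shares in 13.1% of these exons with T, 6.21% with C, 5.26% with A and 5 of the 21 with G, and above them in 5.13% with T, 8.74% with C and 14.04% with A. These are exons through whose 5′ flank some annotated transcript runs, 27.0% of the 8481 measured, and the part of this base in the shifts of the 10 genes was not tested.

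The levels of the 10 genes are given beside their splice choices. The S34F and WT levels (TMM-scaled CPM) overlapped in all 10. Groups were apart in 13.1% of 7033 genes and loci, a share at which a count of 0 in 10 genes says little. The log2 fold change (S34F over WT, edgeR fit with a B1/B2 term) ranged from -0.37 for ELOVL1 to 0.56 for PON2. PON2 had 44.4, 113 and 75.6 CPM in S34F replicates 1 to 3, against 39.3, 40.7 and 82.1 CPM in WT replicates 1 to 3, so its groups overlapped. RWDD2B differed between B1 and B2 far more than between genotypes, with 47.6, 48.8 and 255 CPM in S34F replicates 1 to 3, against 49.4, 47.5 and 420 CPM in WT replicates 1 to 3. RBM39 had 113, 223 and 170 CPM in S34F replicates 1 to 3, against 113, 162 and 325 CPM in WT replicates 1 to 3. In RNA from whole cultures, less RNA per cell and fewer cells that make it cannot be told apart.

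**Figure D5:**
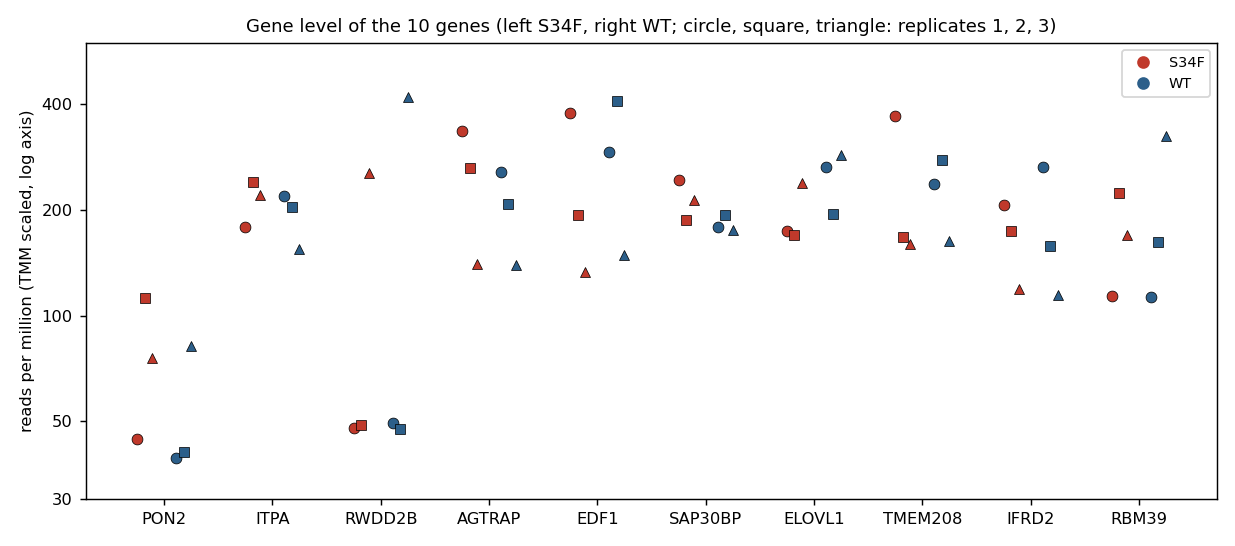
Level of each gene (TMM-scaled CPM, log axis) in the 3 S34F libraries (left) and the 3 WT libraries (right) of each gene, with replicates 1, 2 and 3 as circles, squares and triangles. The groups overlap in all 10 genes, and both B2 libraries of RWDD2B, 255 in S34F and 420 in WT, lie far above the others.

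Relatives of the 10 genes were drawn from a list by family or pathway that does not hold the 10 genes themselves. The list was made with earlier results of these data known, so its counts are no independent evidence. Of 94 listed symbols, some of them older names of the same gene, 73 were measured and 56 passed the filter on low counts. In edgeR's quasi-likelihood test with Benjamini-Hochberg adjustment over 7033 genes and loci, 3 of the 56 were called at an adjusted p under 0.05, beside 3.24% of all genes and loci. All 3 were lower in S34F, beside 2.13% of all genes and loci called lower. The median log2 fold change was 0.09 over the 56 and 0.02 over all genes and loci.

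U2AF1L4, a close relative of U2AF1 in 3′ splice site recognition, fell to 16.4, 12.7 and 5.67 CPM in S34F replicates 1 to 3, against 44.1, 56.0 and 35.1 CPM in WT replicates 1 to 3, with a log2 fold change of -2.02 (edgeR, adjusted p = 0.00687). IFRD1, the paralog of IFRD2, fell to 4.93, 6.37 and 5.67 CPM in S34F replicates 1 to 3, against 24.4, 25.4 and 29.1 CPM in WT replicates 1 to 3, with a log2 fold change of -2.23 (edgeR, adjusted p = 0.00894). For both genes all S34F libraries were under all WT libraries. Both levels rest on few reads in the shallower S34F libraries. U2AF1L4 had 22 reads in the S34F libraries together and 199 in WT, and IFRD1 had 12 in S34F and 120 in WT. RNF14, a ubiquitin ligase with an RWD domain, had 9.86, 2.12 and 17.0 CPM in S34F replicates 1 to 3, against 17.9, 14.4 and 67.8 CPM in WT replicates 1 to 3, so its groups overlapped, and its log2 fold change of -1.70 passed in edgeR (adjusted p = 0.0464) but not with the replicate number as a block (adjusted p = 0.0596) or in DESeq2 (adjusted p = 0.109). RNF14 too had few reads, 25 in the S34F libraries together and 161 in WT. None of the 3 calls was made in edgeR without S34F replicate 3, without WT replicate 2 or without WT replicate 3, where adjusted p ranged from 0.0582 to 0.545. Over all alternatives run, edgeR and DESeq2 adjusted p ranged from 3.15e-05 to 0.243 for U2AF1L4, from 0.000227 to 0.164 for IFRD1 and from 0.00162 to 0.759 for RNF14.

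Among 153 splice choices tested in 34 of these relatives, 1 was called, beside 1.22% of all choices. It was a 45-base alternative 3′ splice site of SERBP1, a protein bound to idle ribosomes, at chr1:67889961-67890005 (hg19). Reads with the longer form were 7 of 56, 9 of 92 and 22 of 177 in S34F replicates 1 to 3, against 63 of 217, 45 of 134 and 80 of 286 in WT replicates 1 to 3. The share averaged 11.6% ± 1.55 in S34F and 30.2% ± 2.98 in WT (SD, n = 3 each), with a log2 odds ratio of -1.66 and an adjusted p of 0.000234 in the edgeR event model. On log2 odds in limma the adjusted p was 0.410, and with at least 20 reads, no B1/B2 term, the replicate block, B1 alone or 1 library left out it ranged from 0.000834 to 0.0355 in edgeR.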

How the data were processed

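Poly(A) RNA was turned into cDNA with Smart-Seq2 and read on a MinION, per the labels' protocols. The deposited values are raw long-read counts per isoform, made by the authors over 1 isoform set for all libraries, on build hg19 per the submitters' processing notes. For the aligner, the isoform settings, filters and use of strand, nothing was stated in the labels used here. The 10 genes and the list of relatives were chosen with earlier results of these data known.

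Exon chains of the deposited isoform models gave 26623 splice choices (cassette exons, alternative 5′ and 3′ splice sites, retained introns), of which 17088 had at least 10 informative reads in every library. The longer form of an alternative site was counted only from exons that run through the whole added segment. The leading choice of a gene is that with the smallest unadjusted p in the event fit, used only to rank. Exon pairs and use of a 3′ splice site by any exon were added after the values were seen.

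Counts were summed per gene and tested in edgeR 4.0.16 (R 4.3.3; glmQLFit, TMM, filterByExpr) with a B1/B2 term, which leaves 3 residual degrees of freedom. Choices were tested in edgeR on 2 counts per library with library terms. The adjusted p threshold was 0.05. The gene-level p-values measure the spread between libraries of 2 isolates per genotype, part of which may be technical. Replicates 2 and 3 of a genotype enter as separate libraries though they are the same isolate. In the event fit a spread shared by all choices dominates, with 186 prior beside 3 residual degrees of freedom. The p-values for choices, that of SERBP1 among them, thus rest little on a choice's own spread between libraries. On simulated counts with 200 changed features in each, 155 genes and 127 events were recovered. The simulation used a single size of change, a fixed dispersion and no B1/B2 difference. Its changed events left out rare and nearly constant forms, so it does not show how smaller or rarer shifts are recovered. DESeq2 1.42.0 and limma 3.58.1 (log2 odds, offset 0.5) were alternatives. Same-numbered libraries deviated together in gene level, with correlations of 0.488, 0.161 and 0.848 for replicates 1, 2 and 3, so the numbers were taken to pair the libraries under a limit of 0.1 for every pair. Differently numbered B1 libraries also correlated, at 0.544 (S34F 1 with WT 2) and 0.326 (S34F 2 with WT 1), while B1 with B2 gave -0.720 to -0.308, so the numbers carry B1 against B2 and do not set isolates apart.

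Sequences come from GENCODE v29 transcripts, tied to the deposited models by transcript ID, exon order and exon length, and positions are those of the deposited hg19 models. The segment was read for 9 of the 10 genes. Relatives named in the text are all those called. A few items are not reported here. Analysis used Python 3.11.15, pandas 2.3.3, numpy 2.4.6, scipy 1.17.1 and matplotlib 3.10.9.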

Additional observations from a re-analysis of the deposited data

How the results depend on the processing

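The median absolute difference at the leading choices, 14.1 points, stayed between 12.6 and 15.4 points over the leave-one-out settings and kept within the replicate spread under the other alternatives run. The replicate block gives the same 14.1 points by construction, and leaving out or pooling libraries cannot turn a sign where the groups do not overlap, so neither bears on stability. Of 117 settings compared for single genes, 2 moved by more than the spread between replicates, both with annotated isoforms alone: RBM39 to -8.25 points and PON2 to -40.1 points. That alternative gave a value for 7 of the 10 genes.

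Counts over whole tables depended more on the fit. Called genes numbered 228, with 491 under no filter, 72 with at least 10 reads in every library, 2 with no B1/B2 term, 79 in B1 libraries alone and 67 to 655 with 1 library left out. Called relatives numbered 3, with 0 under at least 10 reads in every library (where none of the 3 was tested), no B1/B2 term or B1 libraries alone, and 0 to 7 with 1 library left out. Called splice choices numbered 209, with 37 under no B1/B2 term, 54 in B1 libraries alone, 0 in limma (1575 at an unadjusted p under 0.05) and 53 to 193 with 1 library left out. The called choice of a relative was 1, with 0 in limma (10 at an unadjusted p under 0.05) and 1 to 1 with 1 library left out. The replicate block gave 187 genes, 145 choices and 2 relatives, and changed no other call named than that of RNF14. The prior degrees of freedom for choices were 186 in edgeR and 3.30 in limma. The cause of these changes was not tested. Depth limits RWDD2B and PON2 most, with 23 and 27 informative reads in their shallowest libraries.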

Other observations

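Outside the 10 genes, the choices whose share over the 6 libraries was most like the mean pattern of the leading choices, each scaled and turned so that S34F is higher, were looked up among 13321 choices of 2091 genes, each with 20 or more informative reads per library. Among the 5 with the highest absolute Pearson correlation were choices in TNFRSF12A (r = -0.996), EIF4A3 (r = 0.995), COX7B (r = -0.995) and IFITM3 (r = -0.994); all values share the same 6 libraries, so this is a ranking and no test. TNFRSF12A, a receptor of the tumour necrosis factor family, had the largest difference of these 4, with a 340-base alternative 3′ splice site in 14.9% ± 0.618 of reads in S34F and 24.4% ± 0.798 in WT (SD, n = 3 each). Its S34F reads were few, with the longer form in 3 of 21, 4 of 27 and 9 of 58 in replicates 1 to 3. In WT replicates 1 to 3 the longer form was in 36 of 153, 25 of 100 and 31 of 125 reads. EIF4A3, a core protein of the exon junction complex, held a 139-base exon in 98.0% ± 0.200 of reads in S34F and 95.7% ± 0.198 in WT. The choices in COX7B and IFITM3 differed by -1.10 and -0.683 points, on few reads with the form. For COX7B these were 1 of 230, 1 of 130 and 2 of 270 in S34F replicates 1 to 3, against 9 of 527, 10 of 592 and 4 of 215 in WT. For IFITM3 they were 0 of 615, 0 of 239 and 0 of 407 in S34F, against 7 of 1101, 6 of 905 and 4 of 534 in WT.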
